A study of Homo sapiens with 6 samples.

Results

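Knockdown of the E3 ubiquitin ligase RNF25 in the renal cell carcinoma line SW839 was read here through interferon-stimulated genes. The set holds 47 genes, taken by symbol from a table of 30267 genes. Of these, 46 reached 10 normalized counts in 3 or more libraries and were tested. Total RNA depleted of ribosomal RNA was sequenced in 3 libraries with hairpin RNA against RNF25 (shRNF25) and in 3 libraries with the pLKO vector (shControl). Both arms were transduced with a lentivirus and selected with puromycin, so that each is a selected pool and not a clone. The titles use the single name shRNF25 with a number, and the library names the single stem shRNF25B with a number. The labels do not say whether these numbers mark hairpins or replicates, so that hairpins against RNF25 cannot be compared. The treatment text attached to every sample, the controls included, speaks of the shRNF25 plasmid, and the groups rest on the titles and genotype labels. The labels name no interferon treatment. The labels do not say whether the libraries of a group came from separate cultures, and the p-values then measure only the spread between these libraries.

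Interferons are secreted proteins that bind receptors on the cell surface and activate kinases of the JAK family. For type I and type III interferon, the complex ISGF3, of which IRF9 is the DNA-binding subunit, binds the interferon-stimulated response element (ISRE) near the start of many genes. Interferon-γ acts mainly through another element, GAS. The induced genes degrade or sequester foreign RNA, block entry or budding of viruses, tag proteins with ISG15, and sense nucleic acids. Many cancer cell lines express them at a basal level without added interferon.

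The ISRE is the sequence that most of these genes share. The set was chosen by symbol as interferon-stimulated genes, so that a high share with an ISRE follows from that choice and is no independent result. Promoters from 250 bases before to 50 bases after the transcription start were taken from RefSeq (GRCh38.p14) and were matched for 37 of the 47 genes. The 10 genes without an entry were IFIT2, OAS2, OASL, DHX58, USP18, MX2, GBP2, IFITM2, IRF7 and TRIM22. An ISRE core was written as GAAANNGAAA or its other strand TTTCNNTTTC, and at least 1 match was found in 27 of the 37 genes (73.0%), against 3.57% of 35116 genes with a promoter of this length and 4.01% of 11370 tested genes. The GAS core TTCNNNGAA, a palindrome, was present in 13 of the 37 (35.1%), against 7.66% of all. The windows shown here carry the ISRE matches in capitals, with 10 bases on each side, for genes chosen after their values were seen, among those that were higher, lower or not called on knockdown.
IFIT1: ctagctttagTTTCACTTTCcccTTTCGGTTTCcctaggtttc
OAS3: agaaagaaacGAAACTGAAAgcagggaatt
ISG15: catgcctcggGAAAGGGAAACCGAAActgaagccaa
IFI6: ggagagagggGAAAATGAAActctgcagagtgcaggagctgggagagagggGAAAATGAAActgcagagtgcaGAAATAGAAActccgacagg
IFI44L: tcctagtgagGAAAAAGAAAgttagtggca
GBP1: aacgaagtacTTTCAGTTTCatattactct
ISG20: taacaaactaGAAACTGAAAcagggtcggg
The IFIT1 window lies at chr10:89392497-89392539 (plus strand, 126 to 84 bases before the start) and holds 2 matches. The OAS3 window lies at chr12:112938321-112938350 (plus strand, 153 to 124 bases before the start), and a further match with its first base at -12 is not shown. For ISG15 the window at chr1:1013374-1013409 (plus strand, 123 to 88 bases before the start) holds 2 matches that overlap. In IFI6 the window at chr1:27672266-27672358 (minus strand, 166 to 74 bases before the start) holds 3 separate matches. The IFI44L window lies at chr1:78620365-78620394 (plus strand, 83 to 54 bases before the start). GBP1 has its match at chr1:89065316-89065345 (minus strand, 137 to 108 bases before the start), and ISG20 at chr15:88638937-88638966 (plus strand, 79 to 50 bases before the start). Relative to GENCODE transcripts with other starts, the GBP1, ISG20 and IFI44L windows also overlap annotated exons.

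Reads counted on genes numbered 18647460 to 19943154 a library. RNF25 itself was at 694, 534 and 536 in shControl and 214, 246 and 265 in shRNF25, without overlap, a log2 fold change of -1.27 ± 0.15 (SE, adjusted p = 0.000585). The cytokeratin genes KRT8, KRT18 and KRT19 were abundant in every library and the kidney factor PAX8 lay between 76.7 and 140.3. The renal carcinoma marker CA9 lay between 1.8 and 50.7, and PAX2, also on this list, was looked up and had no value. Of the 8 tested genes of this list, VIM was called higher, at 448, 416 and 203 in shControl and 804, 882 and 810.2 in shRNF25, a log2 fold change of 1.31 (adjusted p = 0.00805). In the same list ANGPTL4 was called lower, at 449, 452 and 3549.8 in shControl and 186, 161 and 169.7 in shRNF25, -2.38 (adjusted p = 0.0324), with an adjusted p of 0.0989, 0.0925 and 0.094 without shRNF25 replicates 1, 2 and 3. A list of leukocyte markers summed to 25.4 to 39.0 in shControl and 43.8 to 57.4 in shRNF25 over the 9 genes measured, with CD3E, CD68 and ITGAX at or under 3 reads in every library. IL3RA, of that list, was at 1.1, 3.1 and 11.9 in shControl and 25.5, 26.8 and 26.7 in shRNF25. Markers of endothelium and fibroblasts summed to 483 to 713 in shControl and 438 to 586 in shRNF25 over 8 genes, most of it PECAM1, and CDH5 was at 73.0, 103 and 199 in shControl and 3.6, 8.3 and 5.7 in shRNF25. The part of these markers in the results was not tested.

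One control library stood apart for this gene set. Of the 46 tested genes, 36 (78.3%) had their lowest control value in shControl replicate 3, 10 in replicate 1 and 0 in replicate 2. Over all 16554 tested genes replicate 1 was lowest in 39.5%, replicate 3 in 31.8% and replicate 2 in 28.6%. Replicate 1 was also the highest control most often, in 40.7% of all tested genes and in 21 of the 46. The median deviation from the control mean on the log2 scale was 0.22, 0.21 and -0.43 in shControl replicates 1, 2 and 3, and over all tested genes it was near 0 in each. Replicate 3 was highest in 5 of the genes only, namely GBP2, ISG20, IRF1, IFI27 and LGALS3BP. The spread among controls was wide, with a median SD of 0.47 on the log2 scale against 0.26 over all genes. The control furthest from the others differed between genes, and was replicate 2 in ISG15 and replicate 1 in EIF2AK2. Among the 3 shRNF25 libraries the median SD was 0.089, against 0.096 over all genes. In each of the 46 genes the controls varied more than the knockdown libraries, which was so for 83.2% of all tested genes. From the lowest to the highest control the median ratio was 1.85, and from the lowest to the highest shRNF25 library 1.13. The same library also stood apart outside the set, for example in the hypoxia-inducible gene ANGPTL4. The deposited library names number the shRNF25 libraries as a series. Those of the controls all begin with PLKO but form no such series, and shControl replicate 3 is named PLKO alone. The labels do not say whether the names mark separate preparation or sequencing. What set shControl replicate 3 apart was not tested.

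**Figure D1:**
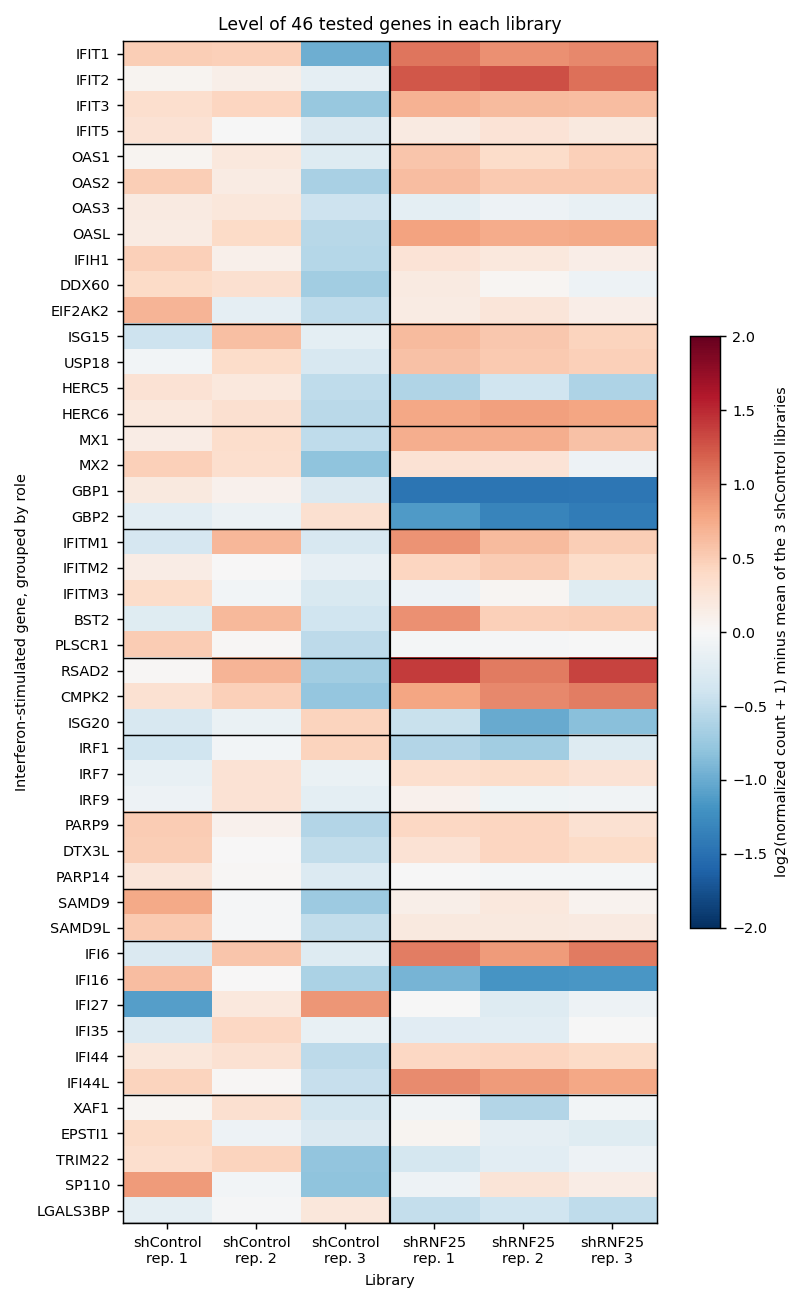
Heat map of the 46 tested genes (rows, grouped by role) in the 6 libraries (columns), where color is log2(normalized count + 1) minus the mean of the 3 shControl libraries. shControl replicate 3 is below the control mean in most rows, and GBP1, GBP2 and IFI16 are low in all 3 shRNF25 libraries while IFIT2, RSAD2 and IFI6 are high in all 3.

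On knockdown, 8 of the 46 tested genes rose and 4 fell past an adjusted p of 0.05 and a fold change of 1.5. IFIT2, RSAD2, IFI6, CMPK2, IFI44L, HERC6, OASL and MX1 were higher in shRNF25, and GBP1, GBP2, IFI16 and ISG20 were lower. Over all 16554 tested genes 8.65% were called higher and 7.1% lower, so that 8 of 46 is a larger share and 4 of 46 a share near that of all genes. The knockdown libraries lay wholly above the controls in 16 genes and wholly below in 5, where 20.7% and 21.8% of all tested genes did so, and the groups overlapped in 25. With 3 against 3 libraries an exact permutation test of a single gene cannot go below p = 0.1. The median log2 fold change of the set was 0.20, against -0.01 over all genes, with 29 genes above 0 and 17 below. On adjusted p alone 10 rose and 5 fell, where 10.5% and 10.8% of all genes did so. At a fold limit of 2, 2 genes were higher (IFIT2 and RSAD2) and 3 lower (GBP1, GBP2 and IFI16), where 5.39% and 3.1% of all genes were. IFI6 and CMPK2, at log2 fold changes of 0.97 and 0.92, lay just under that limit. In bulk RNA, fewer cells expressing a gene and less RNA per cell cannot be told apart.

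Among genes with a promoter entry, an ISRE core was present in 4 of the 6 whose count rose on knockdown, 2 of the 3 whose count fell and 21 of the 28 that were tested and did neither. A GAS core was present in 1 of the 6, 0 of the 3 and 12 of the 28. The ISRE core is thus found in genes that rose, such as IFI6, in genes that fell, such as GBP1, and in genes such as OAS3 that passed no criterion.

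Without shControl replicate 3 the median of the set was 0.01. 4 genes were then called higher (IFIT2, RSAD2, IFI6 and IFI44L), where 10.4% of all genes were, and 5 lower (GBP1, GBP2, IFI16, HERC5 and TRIM22), where 7.67% of all were. Without shControl replicate 1 the set had 13 genes called higher and 6 lower with a median of 0.45, where 9.5% and 7.57% of all genes were. Without shControl replicate 2 it had 12 higher and 2 lower with a median of 0.23, where 7.56% and 6.54% of all genes were. Leaving out a knockdown library lowered the number of calls over all genes as well. Without shRNF25 replicate 1, 1 gene of the set was called higher and 2 lower, where 4.52% and 4.91% of all genes were. The numbers were 3 and 2 without shRNF25 replicate 2 (4.98% and 5.0% of all) and 2 and 2 without shRNF25 replicate 3 (5.02% and 4.97% of all). IFIT2, GBP1 and GBP2 kept their call under each of the 15 alternatives tried.

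**Figure D2:**
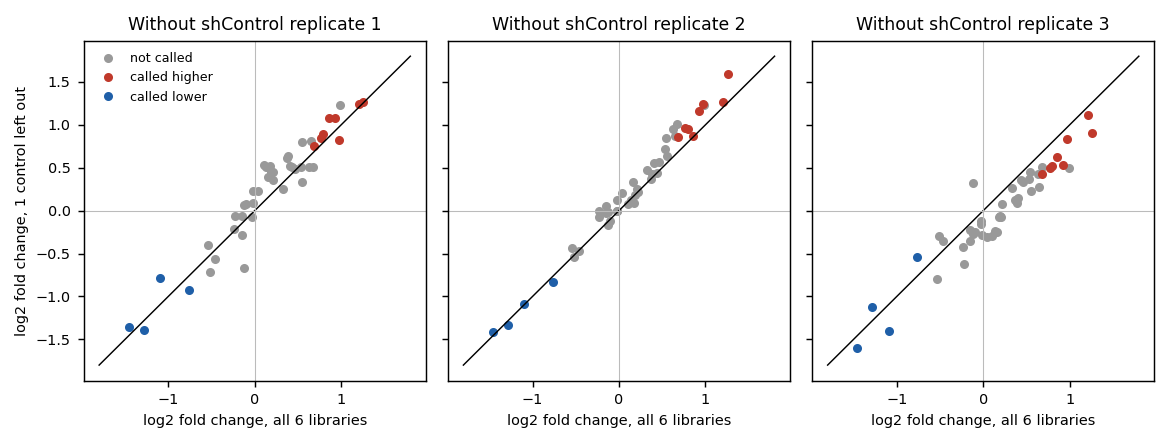
Each point is 1 of the 46 tested genes, with the log2 fold change from all 6 libraries on the horizontal axis and that from 5 libraries on the vertical axis, 1 panel for each control left out, and color marks the call from all 6. Without shControl replicate 3 most points move below the diagonal and the median falls from 0.20 to 0.01.

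The IFIT genes encode proteins that bind the ends of foreign RNA and block its translation. IFIT2, on chromosome 10 (89283694 to 89309276, plus strand), counted 753, 787 and 637 in shControl and 1702, 1759 and 1558 in shRNF25. All 3 knockdown libraries held more than 1.5 times the highest control, and the log2 fold change was 1.21 ± 0.12 (SE, adjusted p = 0.000234). It kept this size without shControl replicate 3, at 1.12 (adjusted p = 0.000572). IFIT1 was at 1397, 1385 and 502 in shControl and 2088, 1873 and 1938 in shRNF25. The groups did not overlap, but the controls ranged 2.78-fold, and the log2 fold change of 0.99 ± 0.34 (SE, adjusted p = 0.067) did not pass. Without shControl replicate 1 it passed both criteria at 1.24 (adjusted p = 0.0164), and without shControl replicate 3 it was 0.50 (adjusted p = 0.0127), under the 1.5-fold limit. IFIT3 also had shControl replicate 3 lowest and no overlap of the groups, with 566, 607 and 266 in shControl and 729, 698 and 695 in shRNF25. Its log2 fold change was 0.65 (adjusted p = 0.122), which passed without shControl replicate 1 (0.81, adjusted p = 0.0416). IFIT5 overlapped between the groups (355 to 528 against 492 to 519.9) at 0.22 (adjusted p = 0.349). The 4 genes stand beside each other on chromosome 10, and the first 3 overlap LIPA on the other strand, so that, where strand was not used in counting, reads of LIPA and of these genes cannot be told apart. IFIT2 also shares 8.4% of its 50-base words with the transcript AL353751.1.

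OAS enzymes make oligoadenylates that activate the nuclease RNase L when double-stranded RNA is present. OASL, a relative without that activity, lies on chromosome 12 (121019111 to 121039242, minus strand) and counted 357, 418 and 218 in shControl and 559, 532 and 543 in shRNF25. The knockdown libraries were close to each other and above every control, with a log2 fold change of 0.77 ± 0.22 (SE, adjusted p = 0.0327). Without shControl replicate 3 it was 0.49 (adjusted p = 0.0242), short of 1.5-fold, and without shRNF25 replicate 1, 2 or 3 the adjusted p was 0.12, 0.0951 or 0.106. OAS1 passed the adjusted p but not the fold limit, at 0.47 ± 0.13 (SE, adjusted p = 0.0368), from 1516, 1687 and 1225 in shControl and 2157, 1889 and 2026 in shRNF25, and its adjusted p was 0.0633 without shControl replicate 3 and 0.159, 0.0893 and 0.132 without shRNF25 replicates 1, 2 and 3. OAS2 was at 2361, 1875 and 1068 in shControl and 2570.4, 2406 and 2412 in shRNF25, a log2 fold change of 0.55 (adjusted p = 0.138), which became 0.80 (adjusted p = 0.0102) without shControl replicate 1. OAS3, which lies between OAS1 and OAS2, did not share this order, with 11690.1, 12150.2 and 7806 in shControl and 9043, 9663 and 9326 in shRNF25 and -0.15 (adjusted p = 0.557), or -0.35 (adjusted p = 0.0369) without shControl replicate 3. Per kilobase of exon OAS3 was the most abundant of the family in shControl at 1278 normalized counts per kb, above OAS1 (298), OAS2 (282) and OASL (94.1). OAS1, OAS2 and OAS3 overlap the antisense transcript AC004551.1.

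Sensors of foreign RNA did not pass the test. IFIH1 (the sensor MDA5) had a log2 fold change of 0.21 (adjusted p = 0.546), the helicase DDX60 of 0.04 (adjusted p = 0.933) and EIF2AK2, the kinase PKR that halts translation, of 0.18 (adjusted p = 0.649). In EIF2AK2 the controls were 4565, 2505 and 2003 and the knockdown libraries 3179, 3349.6 and 3121, between the controls. DHX58 (LGP2) held at most 1 read in any library and was not tested, so that no direction can be given for it at this depth.

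ISG15 is a ubiquitin-like protein that HERC5 attaches to other proteins and USP18 removes. HERC6, the neighbor of HERC5 and a related ligase, lies on chromosome 4 (88378739 to 88443111, plus strand) and was at 493, 534 and 294 in shControl and 727, 753 and 736 in shRNF25. The 3 knockdown libraries lay close together and above every control, with a log2 fold change of 0.79 ± 0.21 (SE, adjusted p = 0.0246). It was 0.53 (adjusted p = 0.0127) without shControl replicate 3, under 1.5-fold, and its adjusted p was 0.0897, 0.0865 and 0.086 without shRNF25 replicates 1, 2 and 3. HERC5, which starts 14.0 kb beyond the end of HERC6, pointed the other way. It counted 324, 308 and 186 in shControl and 174, 199 and 173 in shRNF25 and its log2 fold change of -0.54 ± 0.21 (SE, adjusted p = 0.102) did not pass, whereas without shControl replicate 3 it did (-0.79, adjusted p = 0.00602). For ISG15 the values were 3225, 6502 and 3749 in shControl and 6649, 6252 and 5856 in shRNF25, so that shControl replicate 2 was among the knockdown libraries and the fold change of 0.54 (adjusted p = 0.118) was not called. Without that library it was 0.84 (adjusted p = 0.00481). USP18 counted 258, 346 and 215 in shControl and 401, 386 and 374 in shRNF25, without overlap, at 0.53 (adjusted p = 0.0593), and 0.71 (adjusted p = 0.0152) without shControl replicate 2. USP18 shares 23.4% of its 50-base words with other genes, mainly USP41, which held at most 3.7 normalized counts.

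The dynamin-like GTPases went in both directions. MX1, which blocks the nucleocapsids of RNA viruses, lies on chromosome 21 (41420304 to 41459214, plus strand) and was at 3834, 4393 and 2435 in shControl and 5726, 5684 and 5199.6 in shRNF25. Each knockdown library exceeded each control, with a log2 fold change of 0.68 ± 0.19 (SE, adjusted p = 0.0356). Without shControl replicate 3 it was 0.43 (adjusted p = 0.0273), under 1.5-fold, and its adjusted p was 0.129, 0.115 and 0.0917 without shRNF25 replicates 1, 2 and 3 and 0.0504 with no filter on low values. MX2, its neighbor, overlapped between the groups at 0.16 (adjusted p = 0.745). GBP1, a guanylate-binding protein strongly induced by interferon-γ that coats intracellular bacteria, fell. It lies on chromosome 1 (89052319 to 89065360, minus strand) and counted 1446, 1343 and 1029.6 in shControl and 457, 458 and 462 in shRNF25. The knockdown libraries were all under 50% of the lowest control, and the log2 fold change was -1.45 ± 0.14 (SE, adjusted p = 0.000203). GBP2, its relative on chromosome 1 (89106132 to 89150456, minus strand), counted 283, 304 and 410.1 in shControl and 149, 131 and 124 in shRNF25, again without overlap, at -1.28 ± 0.17 (SE, adjusted p = 0.00115). Leaving out shControl replicate 3, the lowest control of GBP1 and the highest of GBP2, gave -1.60 (adjusted p = 0.000106) and -1.12 (adjusted p = 0.00188). GBP1 shares 13.3% of its 50-base words with other genes, mainly the pseudogene GBP1P1, which lay between 4.6 and 14.4 normalized counts.

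**Figure D3:**
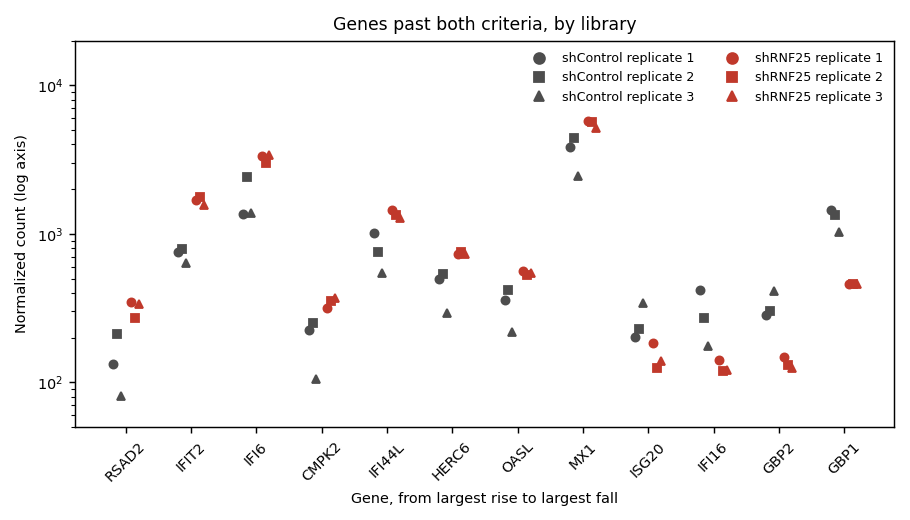
Normalized count (log axis) of the 12 genes past both criteria in each library, with shControl in gray and shRNF25 in red and a marker shape for each replicate number. Red and gray points do not overlap in any of the 12, and shControl replicate 3 (gray triangle) is the lowest control in 7 of the 8 genes that rose.

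Among enzymes of nucleotide and RNA metabolism, RSAD2 and CMPK2 rose and ISG20 fell. RSAD2 (viperin), which makes a chain-terminating nucleotide from CTP, lies on chromosome 2 (6865806 to 6898239, plus strand) and counted 134, 211 and 80.9 in shControl and 348, 271 and 337 in shRNF25. All knockdown libraries were above the controls, which ranged 2.6-fold, and the log2 fold change was 1.26 ± 0.30 (SE, adjusted p = 0.0169). It was 0.91 (adjusted p = 0.0202) without shControl replicate 3, with an adjusted p of 0.0802 and 0.068 without shRNF25 replicates 1 and 3. CMPK2, a mitochondrial kinase of CMP and UMP that supplies CTP, starts on the other strand of the same region, on chromosome 2 (6840570 to 6866635, minus strand), and the annotated genes overlap by 0.83 kb. Its values were 224, 252 and 106 in shControl and 314, 356 and 369.8 in shRNF25 and its log2 fold change was 0.92 ± 0.29 (SE, adjusted p = 0.0483). Its call was lost without shControl replicate 3 (0.54, adjusted p = 0.0266), without each shRNF25 library (adjusted p of 0.116, 0.135 and 0.15), with no filter on low values (0.0648) and with the filter at 50 (0.0554). ISG20, an exonuclease that degrades single-stranded RNA, lies on chromosome 15 (88636153 to 88656483, plus strand) and counted 201, 229.8 and 344 in shControl and 184, 125 and 140.1 in shRNF25. The 3 knockdown libraries were under the controls by a small margin, since shRNF25 replicate 1 was just below shControl replicate 1, and the log2 fold change was -0.77 ± 0.23 (SE, adjusted p = 0.0403). The adjusted p was 0.0732 and 0.0774 without shControl replicates 2 and 3, 0.0551, 0.154 and 0.135 without shRNF25 replicates 1, 2 and 3, 0.0563 with no filter and 0.0661 after rescaling on the median ratio.

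Of the genes named IFI outside these families, IFI6 and IFI44L rose, IFI16 fell and 3 did not pass. IFI6, a small membrane protein with anti-apoptotic activity, lies on chromosome 1 (27666061 to 27672218, minus strand) and counted 1356, 2421 and 1381 in shControl and 3371, 2988 and 3386 in shRNF25. shControl replicates 1 and 3 were alike here and replicate 2 was higher, but still below each knockdown library, and the log2 fold change was 0.97 ± 0.21 (SE, adjusted p = 0.0105). Without shControl replicate 2 it was 1.24 (adjusted p = 0.000898), without replicate 3 0.84 (adjusted p = 0.0297), and without shRNF25 replicate 1 it was 0.94 (adjusted p = 0.0554). IFI44L, on chromosome 1 (78619922 to 78646145, plus strand), was at 1015, 754 and 541 in shControl and 1441, 1341 and 1277 in shRNF25, with a log2 fold change of 0.86 ± 0.20 (SE, adjusted p = 0.016). It remained called without shControl replicate 3 (0.63, adjusted p = 0.0192) and had an adjusted p of 0.0788, 0.0584 and 0.0514 without shRNF25 replicates 1, 2 and 3. IFI44, its neighbor 3.65 kb away, did not overlap between the groups (529 to 936 against 988 to 1020.5) and had 0.40 (adjusted p = 0.18). IFI16, a sensor of DNA in the nucleus and cytosol on chromosome 1 (158999968 to 159055155, plus strand), counted 418, 272 and 175 in shControl and 141, 119 and 120.1 in shRNF25. Its controls ranged 2.4-fold, all above the knockdown libraries, and the log2 fold change was -1.09 ± 0.27 (SE, adjusted p = 0.0214). The fall was larger without shControl replicate 3 (-1.41, adjusted p = 0.00293), and the adjusted p was 0.0649 without shControl replicate 2 and 0.0627, 0.0784 and 0.08 without shRNF25 replicates 1, 2 and 3. IFI35 had -0.15 (adjusted p = 0.591). IFI27 had the widest controls of the group, at 46.4, 116 and 187, with 99.3, 84.0 and 93.4 in shRNF25 inside that range, and its log2 fold change went from -0.12 to -0.67 (adjusted p = 0.0318), past both criteria, without shControl replicate 1 and to 0.32 (adjusted p = 0.519) without replicate 3.

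**Figure D4:**
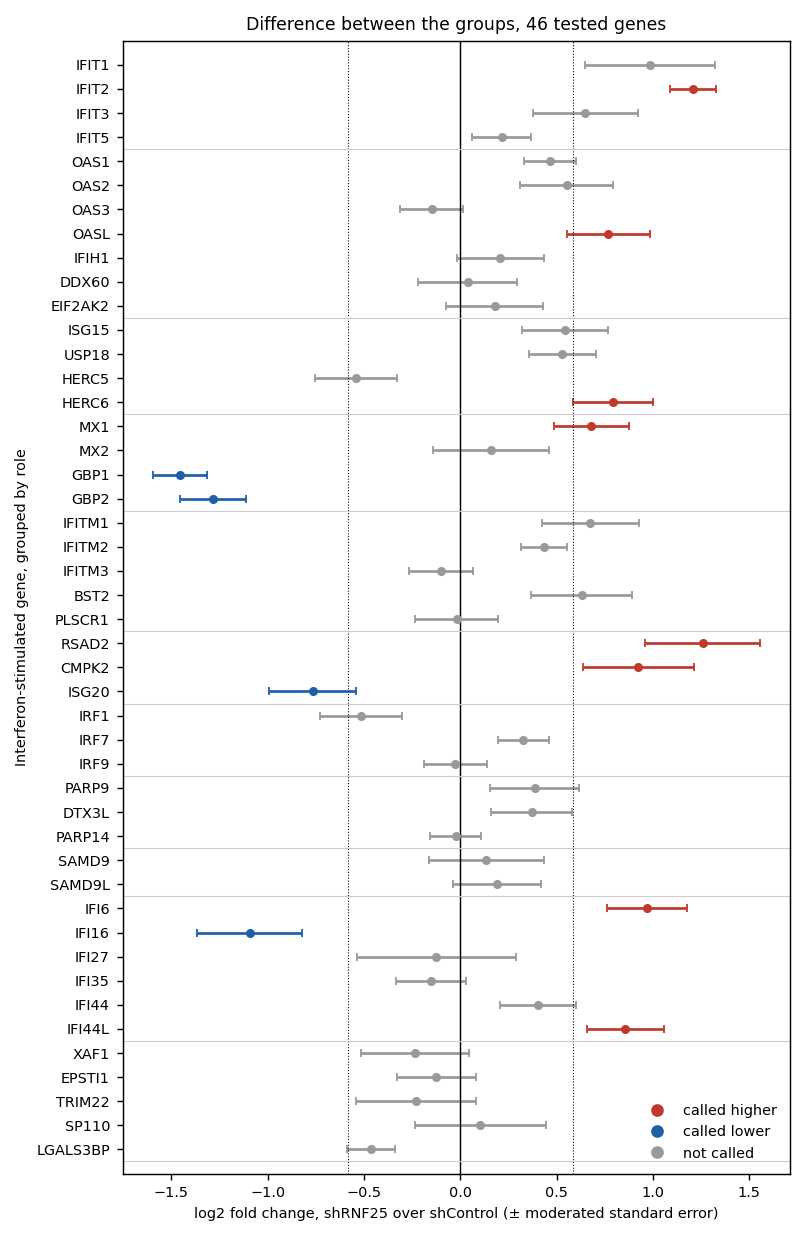
log2 fold change of shRNF25 over shControl for the 46 tested genes, grouped by role, with bars of 1 moderated standard error and dotted lines at a fold change of 1.5. Rises and falls stand in the same families, as with MX1 and GBP1, and the 4 falls past both criteria run from -0.77 to -1.45.

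Restriction factors at membranes included no gene past both criteria. IFITM1, IFITM2 and IFITM3 hinder fusion of viruses with cell membranes, and BST2 (tetherin) holds budding particles at the cell surface. IFITM2 passed the adjusted p alone at 0.44 ± 0.12 (SE, adjusted p = 0.0294), from 780.4, 703 and 628 in shControl and 944, 997 and 906 in shRNF25, and not without shControl replicates 2 (0.0628) or 3 (0.0547) or without any single shRNF25 library. IFITM1 was at 503, 1009 and 507 in shControl and 1184, 989 and 897 in shRNF25 and BST2 at 186, 345 and 166 in shControl and 417, 308 and 309 in shRNF25. In both, shControl replicate 2 was clearly above the other controls and overlapped the knockdown libraries, and the fold changes were 0.68 (adjusted p = 0.0881) and 0.63 (adjusted p = 0.12). Without that library they were 1.01 (adjusted p = 0.00532) and 0.95 (adjusted p = 0.0135). IFITM3 (-0.10, adjusted p = 0.711) and the scramblase PLSCR1 (-0.02, adjusted p = 0.96) had knockdown values inside the range of the controls. Of their 50-base words, 42.3% in IFITM1, 15.8% in IFITM2 and 20.3% in IFITM3 were shared, mainly with each other, and the values of these 3 genes are uncertain to that degree.

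None of the 3 interferon regulatory factors in the set was called. IRF1, induced by interferon-γ and NF-κB, was at 431, 547 and 773 in shControl and 375, 349 and 476 in shRNF25, with shControl replicate 3 highest and a log2 fold change of -0.51 ± 0.21 (SE, adjusted p = 0.116). Without shControl replicate 1 it passed at -0.71 (adjusted p = 0.0104). IRF7, the regulator that amplifies type I interferon, was at 1276, 1725 and 1295 in shControl and 1784, 1820.2 and 1734 in shRNF25, without overlap, and 0.33 (adjusted p = 0.112). IRF9, the DNA-binding subunit of ISGF3, was at -0.03 (adjusted p = 0.929). The annotated transcript AL136295.5 runs through IRF9 and holds all of its 50-base words, and that entry held 8.8 to 21.6 normalized counts in shControl and 50.8 to 68.3 in shRNF25, so that the value of IRF9 depends on how such reads were assigned.

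PARP9 and DTX3L, partners in ADP-ribosylation and ubiquitination that share a promoter region, had near-equal log2 fold changes of 0.39 (adjusted p = 0.263) and 0.37 (adjusted p = 0.244). Their controls ran from 1271 to 2719 and from 1040.4 to 2067, with shControl replicate 3 lowest and replicate 1 highest in both. Without replicate 1 they passed at 0.64 (adjusted p = 0.0138) and 0.62 (adjusted p = 0.00612). PARP14, the relative 105.4 kb further on, was at -0.02 (adjusted p = 0.918). SAMD9 and SAMD9L, antiviral proteins that restrict poxviruses, repeated the order of controls with 1559, 914 and 556 and 381, 259.6 and 187, and the knockdown libraries lay between these at 975 to 1068 and 301 to 303. Their log2 fold changes were 0.14 (adjusted p = 0.782) and 0.19 (adjusted p = 0.585). The sign of the fold change depended on which control was left out for SAMD9, SAMD9L, PARP14, PLSCR1, IFITM3, DDX60, IFIH1, EIF2AK2, MX2, IRF9, IFI35, IFI27, EPSTI1 and SP110.

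Of the remaining 5 genes, LGALS3BP, a secreted glycoprotein, passed the adjusted p but not the fold limit. It counted 7189.8, 8156 and 9621 in shControl and 5948, 6248 and 5805 in shRNF25, without overlap, a log2 fold change of -0.46 ± 0.12 (SE, adjusted p = 0.0277), which was -0.35 (adjusted p = 0.0463) without shControl replicate 3 and had an adjusted p of 0.0593 without shControl replicate 2 and of 0.0876 to 0.127 without a shRNF25 library. The nuclear body protein SP110 had the widest controls of this group at 935, 499.7 and 295, with 481, 619.7 and 575 in shRNF25, and 0.10 (adjusted p = 0.855). TRIM22, a RING protein, was at 82.9, 90.3 and 37.8 in shControl and 51.0, 56.3 and 61.0 in shRNF25, and -0.23 (adjusted p = 0.639), and it was called lower only without shControl replicate 3, at -0.62 (adjusted p = 0.0412). XAF1, an antagonist of XIAP, was low in all libraries, at 20.5 to 33.9 in shControl and 17.5 to 25.7 in shRNF25, with -0.24 (adjusted p = 0.584). EPSTI1 had -0.12 (adjusted p = 0.706).

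The ratio of shControl replicate 1 to each of the other controls was related to gene length, and that of replicates 2 and 3 hardly was. In shControl replicate 1 the short genes IFI6, ISG15, IFITM1 and BST2 held 0.560, 0.496, 0.499 and 0.539 of their count in replicate 2, and their merged exons span between 0.865 and 1.119 kb. The next shortest genes, IFITM3 and IFITM2, went the other way, at 1.33 and 1.11 of their count in replicate 2. Long genes such as SP110 and EIF2AK2 were higher in replicate 1. Over the 46 genes, Spearman's rho between exon length and the log2 ratio of shControl replicate 1 over replicate 2 was 0.516, against 0.208 over 15940 tested genes with a length. Between replicates 1 and 3 it was 0.423 in the set and 0.167 over all, and between replicates 2 and 3 it was -0.0982 and -0.0488. Of the 23 shorter genes (0.865 to 4.924 kb) 16 were lower in replicate 1 than in replicate 2, and of the 23 longer genes 9 were. For the fold change on knockdown rho was -0.278 in the set and -0.0543 over all. Genes are not independent replicates and all points share the same libraries, so these are descriptions. The part of length in the fold changes was not tested.

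**Figure D5:**
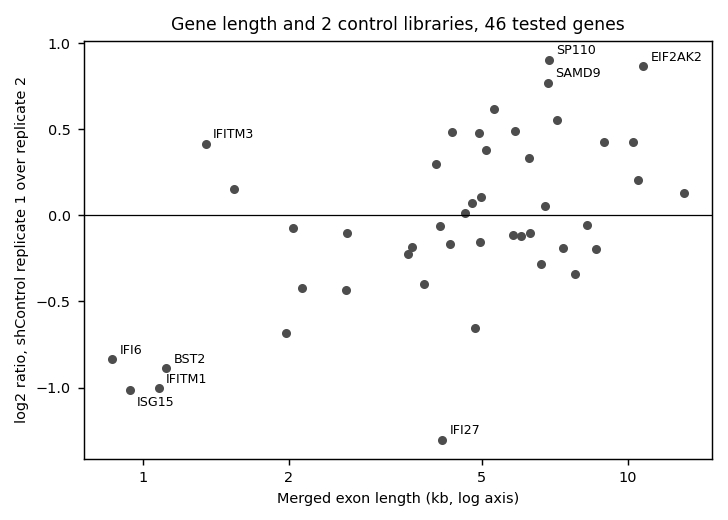
Merged exon length (kb, log axis) of the 46 tested genes against the log2 ratio of shControl replicate 1 over shControl replicate 2, 1 point a gene. The short genes ISG15, IFITM1, BST2 and IFI6 sit near -1 to -0.8, SP110, SAMD9 and EIF2AK2 are above 0.7, and IFI27 is the lowest point. The short genes IFITM3 and IFITM2 lie at 0.42 and 0.15.

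Genes upstream of this set were read from lists of interferon ligands, receptors, JAK-STAT factors and nucleic acid sensing. 33 of the 47 symbols were tested, of which limma called 5 lower (7.1% over all genes) and 0 higher (8.65%). On adjusted p alone 7 were lower and 1 was higher, where 10.8% and 10.5% of all genes were. At an unadjusted p under 0.05 there were 11 lower and 4 higher, against 18.0% and 17.3% of all genes. DESeq2 called 5 lower and 0 higher (7.37% and 8.54% of all), and edgeR 5 lower and 2 higher, IFNE and RNF135 (6.84% and 9.21% of all). The ligands were near the limit of detection. IFNE was the only 1 of 10 ligand symbols with enough reads, at 9.9, 16.4 and 11.9 in shControl and 26.4, 21.2 and 23.8 in shRNF25 and 0.88 (adjusted p = 0.0557). The annotated transcript MIR31HG overlaps IFNE on the same strand, so that the value of IFNE depends on how such reads were assigned. For IFNA2, IFNK, IFNW1 and IFNG there were no values. IFNB1 held at most 4.6 normalized counts, and IFNA1, IFNL2 and IFNL3 had at most 3 reads in every library. The receptor subunits IFNLR1 (for type III interferon) and IFNGR1 (for interferon-γ) fell. IFNLR1 counted 423, 516 and 441 in shControl and 266, 234 and 235 in shRNF25, at -0.90 ± 0.13 (SE, adjusted p = 0.00179), and IFNGR1 counted 535, 429.9 and 614 in shControl and 322, 346 and 337 in shRNF25, at -0.64 ± 0.15 (SE, adjusted p = 0.0156). The call of IFNGR1 was lost without shControl replicate 3 (-0.52, adjusted p = 0.0309) and with the median-ratio rescaling (-0.57, under 1.5-fold), and had an adjusted p of 0.0804, 0.0598 and 0.0671 without shRNF25 replicates 1, 2 and 3. IFNAR1 and IFNAR2, the receptor of type I interferon, were at -0.18 (adjusted p = 0.322) and -0.44 (adjusted p = 0.396). IFNAR2 was low, at 22.1, 23.6 and 21.6 in shControl and 21.9, 9.2 and 21.0 in shRNF25. It is also overlapped on the same strand by AP000295.1, so that its value is less certain than that of IFNAR1.

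STAT2, another subunit of ISGF3, was at -0.11 (adjusted p = 0.468), and the kinase JAK1 passed the adjusted p but not the fold limit at -0.54 (adjusted p = 0.00681), and its adjusted p was 0.0511 without shRNF25 replicate 2. In the sensing list, IKBKE, a kinase that phosphorylates IRF3, fell from 1447, 1757 and 1453 to 751, 725 and 823, at -1.01 ± 0.12 (SE, adjusted p = 0.000592). TICAM1 (the adaptor TRIF), at -0.70 (adjusted p = 0.00386), and IRF2, an antagonist of IRF1 at the ISRE, at -0.83 (adjusted p = 0.0115), fell as well. The adjusted p of IRF2 was 0.0553 and 0.0606 without shRNF25 replicates 1 and 3.

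A further list outside the set held 46 symbols, most of them for interferon-induced genes, and 44 had values. The others are old names of genes also listed under a new name. A total of 40 genes were tested. Of these 4 were called lower and 1 higher, against 7.1% and 8.65% of all genes. The log2 fold change was below 0 in 28 of the 40, with a median of -0.13, and in 51.2% of all genes. The chemokines CXCL10 and CXCL11, which draw T cells through CXCR3, fell most. CXCL10 counted 84.0, 87.2 and 42.1 in shControl and 10.9, 11.1 and 19.1 in shRNF25, at -2.27 ± 0.34 (SE, adjusted p = 0.00212), and CXCL11 counted 117, 70.8 and 38.9 in shControl and 10.0, 16.6 and 13.3 in shRNF25, at -2.31 ± 0.38 (SE, adjusted p = 0.00339). The immunoproteasome subunit PSMB9 fell by 0.97 on the log2 scale (adjusted p = 0.0186, and 0.0658, 0.0709 and 0.0708 without shRNF25 replicates 1, 2 and 3), and UBE2L6, the enzyme that passes ISG15 to HERC5, was at -0.78 ± 0.10 (SE, adjusted p = 0.000987). The 1 gene called higher, IFITM10, is a little-studied relative of the IFITM genes, and its induction by interferon was not examined here. IFITM10 rose from 6.6, 5.1 and 9.7 to 22.8, 17.5 and 17.2, at 1.33 ± 0.33 (SE, adjusted p = 0.0199). Its adjusted p was 0.0505 after quantile normalization, 0.0526 without shControl replicate 2 and 0.103, 0.069 and 0.066 without shRNF25 replicates 1, 2 and 3.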

How the data were processed

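RNA-seq was used from 6 SW839 libraries, 3 shRNF25 and 3 shControl, grouped and numbered by their labels. The authors deposited 1 table of normalized counts, a signal for each gene and library. The submitters' notes name fastp, HISAT2, HTSeq and GRCh38, and the paper names a stranded total RNA kit with ribosomal depletion and DESeq2. The gene annotation and the strand setting of the counting are not given in the sources used here. Values in each library were whole multiples of a step (100% of values within 0.01 reads), so that whole reads were recovered, and the step was the inverse of the DESeq2 size factor. No correction for gene length or batch is visible in the values.

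The deposited scaling was kept. Groups were compared on log2(normalized count + 1) by limma 3.58.1 in R 4.3.3, using lmFit and a trended eBayes, for the 16554 genes with at least 10 in at least 3 libraries, with Benjamini-Hochberg adjustment over all of them and group as the only term. A gene was called at adjusted p under 0.05 and a fold change of at least 1.5, the criteria in the methods of the study. Fold changes are on the log2(normalized count + 1) scale, which understates changes of low genes. Where a library was left out and a group had 2 libraries, the spread was still estimated over the remaining libraries by limma. The members and gene lists were chosen with earlier results of these data known. Genes past the criteria are given by library, and the others by range or where their control spread was the widest of their group. The alternatives tried, 1 at a time, were a pseudocount of 5 or 0.5, a minimum of 50 or none, quantile normalization or a median-ratio rescaling (genes whose mean is 100 or more), DESeq2 1.42.0 or edgeR 4.0.16 on recovered reads, a block for the replicate number, leaving out single libraries, and calls at a 2-fold limit or on the adjusted p alone. Gene positions and exon lengths are from GENCODE 29 (GRCh38), matched by symbol, and shared 50-base words were counted between annotated transcripts. Counts at or under 3 reads in every library were treated as at the floor. A gene of the pathway lists is not reported here by name. No sample column was left unmapped, and between 18647460 and 19943154 reads per library limit the precision of genes with few reads.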

Additional observations from a re-analysis of the deposited data

How the results depend on the processing

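Of the 46 tested genes under up to 15 alternatives each, 606 values kept their direction and stayed called or not called by both criteria, 36 lost the call, 20 gained it and 27 changed sign. Between 2 and 6 genes of the set were called lower and between 1 and 13 higher when single libraries were left out, and between 748 and 1725 of all genes were called higher. At a fold change of at least 2, 3 genes of the set were called lower and 2 higher, with 513 (3.1%) of all genes lower and 893 (5.39%) higher. The adjusted p alone called 1785 of all genes lower, and a minimum of 50 left 898 of all genes higher. With quantile normalization the sign changed for OAS3 (0.0919), IFITM3 (0.0888), PLSCR1 (0.0855), PARP14 (0.0822) and STAT2 (0.00481), and with rescaling on the median ratio for PLSCR1 (0.0467), IRF9 (0.0398) and PARP14 (0.0418). On recovered reads it changed for DDX60 and SP110, at -0.00135 and -0.0102 in edgeR and -0.0198 and -0.0306 in DESeq2. When single libraries were left out, log2 fold changes that crossed 0 lay for IFITM3 between -0.253 and 0.0826, for PLSCR1 between -0.28 and 0.232, for PARP14 between -0.158 and 0.0946, for EPSTI1 between -0.269 and 0.0681, for IRF9 between -0.123 and 0.122, for IFI35 between -0.285 and 0.0574, for IFIH1 between -0.078 and 0.446, for DDX60 between -0.313 and 0.227, for EIF2AK2 between -0.0728 and 0.521, for MX2 between -0.246 and 0.393, for SAMD9 between -0.232 and 0.511, for SAMD9L between -0.0595 and 0.454, for IFI27 between -0.671 and 0.321 and for SP110 between -0.299 and 0.532. The cause of these changes was not tested. Same-numbered libraries did not deviate together (correlations of -0.0638, -0.0874 and 0.0471). This gives no sign of pairing by number, but with 3 libraries a group it cannot exclude pairing. With the replicate number as a block, 4 genes of the set were called lower and 11 higher (7.21% and 8.45% of all genes), adding IFIT1, IFIT3 and IFITM1. No library correlated best with its own number. Quantile normalization called 4 of the set lower and 10 higher, adding IFIT1 and ISG15 (7.36% and 7.64% of all genes). The rescaling called 3 and 9, adding USP18 (5.84% and 9.77%), DESeq2 4 and 9, adding IFIT1 (7.37% and 8.54%), and edgeR 4 and 8 (6.84% and 9.21%). At this depth DHX58, IFNB1 and the other interferon ligands apart from IFNE could not be compared.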
